A study of Homo sapiens with 8 samples.

Results

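The 19p13 zinc finger genes are 45 ZNF genes listed for the clusters of bands 19p13.2 to 19p13.3 on the short arm of chromosome 19. In the annotated gene order 5 of them formed a group in 19p13.3, 12 lay from ZNF558 to ZNF846 and 25 from ZNF653 to ZNF791, and ZNF557, ZNF414 and ZNF333 lay apart from these. A probe was taken as theirs where the platform annotation gave it 1 of these symbols and no other, which left 47 probes for 38 of the 45 genes, among 31741 probes and 18255 genes with such a probe on the whole array. In 29 genes this was 1 probe and in 9 genes 2 probes. ZNF177, ZNF20, ZNF439, ZNF763, ZNF799 and ZNF443 were named only on 7 probes that carry several symbols, which were not used, and ZNF844 had no probe under its symbol. Of the 47 probes 4 had a mean intensity under 50, taken here as the background level. All probes came from SH-SY5Y, a human neuroblastoma line with noradrenergic neuronal features that was bought as 1 established line. Cells received 0 (control), 10, 50 or 100 µM maleic acid, a small dicarboxylic acid known as a food adulterant, for 24 h, and no genotype, allele or second agent differed between the groups. Each dose was 1 RNA sample on 2 technical arrays (8 arrays in all), so each p value below measured array noise between RNA samples and not the spread between cultures, and dose and culture cannot be told apart. A probe is called lower or higher where its limma p value, adjusted over all 31741 probes, was under 0.05.

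Proteins of this family bind DNA through a row of C2H2 zinc fingers, and most members of these clusters also carry a KRAB domain. The KRAB domain recruits TRIM28, a scaffold that brings in the histone methyltransferase SETDB1 and heterochromatin proteins, and in this way silences the bound site. Many KRAB zinc finger proteins are known for binding transposable elements. The genes arose by repeated local duplication, so neighbours are often close relatives and probes of 1 gene may take up RNA of another, which was not tested.

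Promoters of some neighbouring members shared short motifs, while likeness over the whole promoters was not measured. Short stretches around a shared box before the start are shown for some of the genes whose values are described below. The sequences are those of the RefSeq promoter table (GRCh38.p14), which matched 43 of the 45 genes with 47 windows of 300 bases, and ZNF559 and ZNF763 had no match. In the members from ZNF653 to ZNF791 most windows held a box, CCAATCA, a longer form of the CCAAT core. It is printed in capitals below in the direction of each gene.
ZNF441 (chr19:11766944-11766999, plus strand): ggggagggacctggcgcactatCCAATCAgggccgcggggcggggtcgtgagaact
ZNF440 (chr19:11814186-11814245, plus strand): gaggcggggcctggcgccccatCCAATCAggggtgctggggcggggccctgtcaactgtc
ZNF700 (chr19:11925021-11925080, plus strand): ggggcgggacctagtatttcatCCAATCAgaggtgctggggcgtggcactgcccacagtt
ZNF433 (chr19:12035706-12035765, minus strand): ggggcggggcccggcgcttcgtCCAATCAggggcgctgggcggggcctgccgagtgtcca
ZNF136 (chr19:12162981-12163040, plus strand): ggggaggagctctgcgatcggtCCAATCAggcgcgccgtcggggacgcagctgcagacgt
ZNF44 (chr19:12294884-12294938, minus strand): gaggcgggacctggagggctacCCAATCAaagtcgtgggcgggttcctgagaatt
ZNF791 (chr19:12610853-12610912, plus strand): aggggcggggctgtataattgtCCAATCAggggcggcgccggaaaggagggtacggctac
The box was searched on both strands, and each CCAATCA also counts as a CCAAT. It was in 22 of the 26 windows of these genes. Over all members it was in 26 of 47 windows (55.3%), against 13.8% of the 600 windows of other ZNF genes and 6.95% of all 35116 windows. The shorter CCAAT was in 70.2% of member windows and 34.6% of all windows, the GC box GGGCGG in 83.0% and 45%, and the TATA box TATAAA in 0 of 47 and 11.5%. ZNF490 and ZNF791 start head to head, and their windows share 206 bases, so their box is the same bases read from either strand.

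The 19p13.3 genes repeated the same box, whereas no window of the 19p13.2 genes from ZNF558 to ZNF846 held it. ZNF77 had 6 copies in its 300 bases, ZNF556 had 4, ZNF57 had 3 and ZNF555 had 2, and ZNF554 had 0. The 250 bases before the start of ZNF77 show the copies in capitals, spaced along most of the stretch.
ZNF77 (chr19:2944972-2945221, minus strand): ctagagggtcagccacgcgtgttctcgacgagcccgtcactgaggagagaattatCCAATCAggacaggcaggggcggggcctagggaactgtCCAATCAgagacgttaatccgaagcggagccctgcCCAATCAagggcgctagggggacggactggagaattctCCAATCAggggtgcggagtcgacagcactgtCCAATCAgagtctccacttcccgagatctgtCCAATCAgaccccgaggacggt
A set of 3 neighbours in the ZNF558 to ZNF846 stretch, ZNF121, ZNF561 and ZNF562, shared another pair of motifs around the start, TGACGTCA (the cyclic AMP response element) and GCCATCTT (AAGATGGC on the other strand, a YY1-type core). They are shown because ZNF121 had the lowest fold of all members at 100 µM.
ZNF121 (chr19:9584529-9584558, minus strand): gaagTGACGTCAgcgcacaatcGCCATCTT
ZNF561 (chr19:9621230-9621259, minus strand): gaagTGACGTCAgcgcaccaccGCCATCTT
ZNF562 (chr19:9675082-9675111, minus strand): gaagTGACGTCAgtgtgccaccGCCATCTT
AAGATGGC was in 6.38% of member windows, which were the 3 shown, in 3.5% of windows of other ZNF genes and in 2.89% of all windows. For TGACGTCA these shares were 10.6%, 3.17% and 1.85%. A match here is a description of letters and not a measured binding site.

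**Figure D1:**
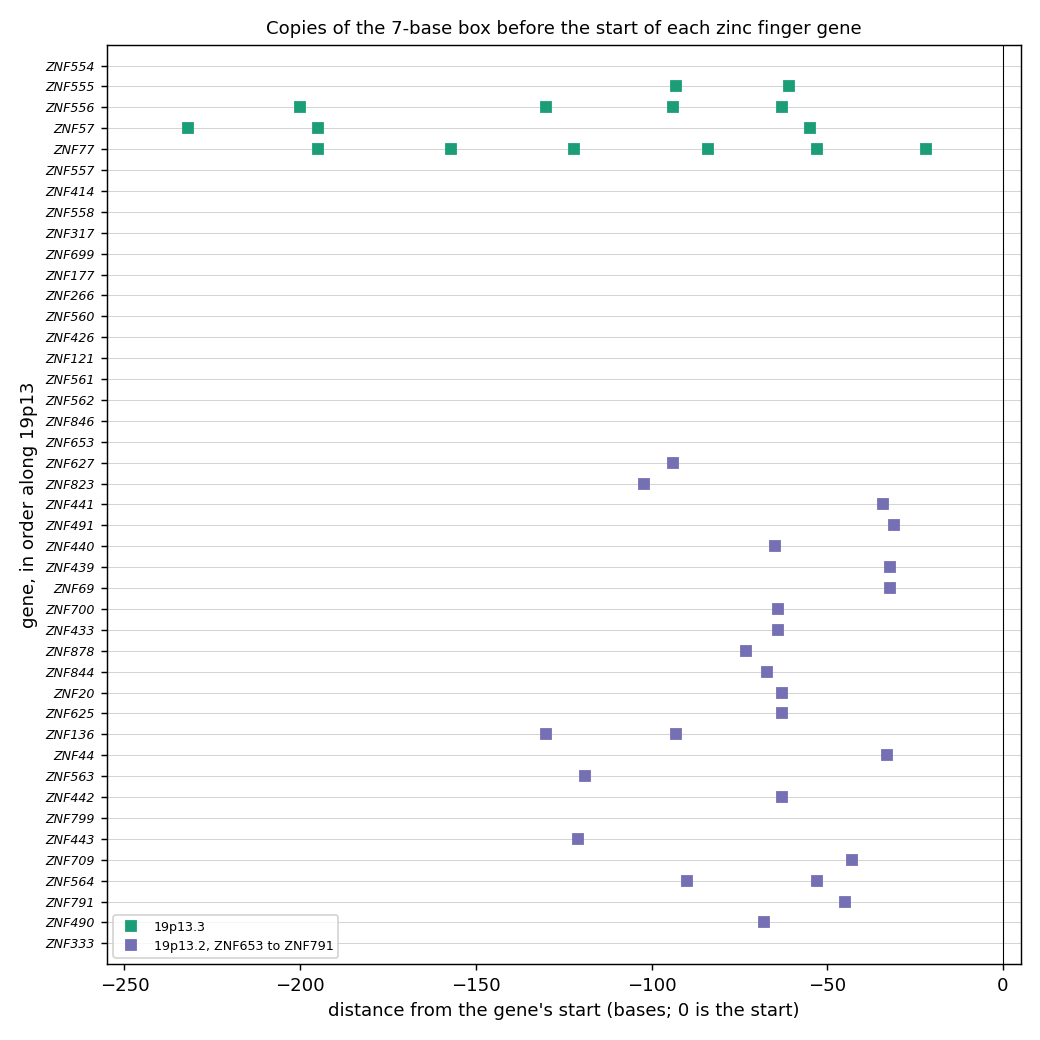
Positions of the CCAATCA box before the start of each member with a promoter window, as the distance in bases of its first base from the start (x axis) and genes in chromosome order (y axis). The ZNF653 to ZNF791 genes mostly had 1 copy, 4 of the 5 genes of 19p13.3 had 2 to 6 copies, and the genes from ZNF558 to ZNF846 had 0.

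At 100 µM the 19p13 zinc finger probes were mostly lower than in control cells. Of the 47 probes, 20 were lower and 1 was higher, where 10.4% of all probes were lower and 8.94% were higher. The member share lower was 42.6%. The median log2 fold over the members was -0.41, against -0.03 over all probes. Both 100 µM arrays were below both control arrays for 35 of the 47 members (33.9% of all probes), and above both for 2 members (28.4% of all probes). Over 2-fold lower were 3 members (1.05% of all probes) and over 2-fold higher were 0 (2.88%). By gene, 17 of 38 had a probe that was lower, 1 had a probe that was higher, and 20 had none called. With means per gene, 16 of the 38 were lower and 1 higher, where 11.9% and 8.35% of all genes were.

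Each fit without 1 array called a smaller share of all probes lower than the full fit did. Member calls at 100 µM were fewer in each of these fits too, and fewest without a control array. Without the first and second control array the member median log2 fold was -0.33 and -0.51, with -0.03 and -0.04 over all probes. Without the first and second 100 µM array it was -0.37 and -0.44, with -0.02 and -0.03 over all probes. The member median stayed at -0.41 without any array of 10 or 50 µM. The replicate block and scaling alternatives stand in the closing section. ZNF426, ZNF136, ZNF121 and 1 probe of ZNF791 were lower in all 7 other settings tried for this comparison and in all 8 fits without 1 array.

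The members were compared with other ZNF genes and with their chromosomal neighbours. The 568 probes of 444 other ZNF genes had 170 lower and 20 higher, with a median log2 fold of -0.28. The 309 probes of 262 other genes that lie between ZNF554 and ZNF333 had 20 lower and 30 higher, with a median log2 fold of 0.07. The neighbours without zinc finger names thus had a share of lower calls (6.47%) below that of all probes. No test of the difference between these sets was made.

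**Figure D2:**
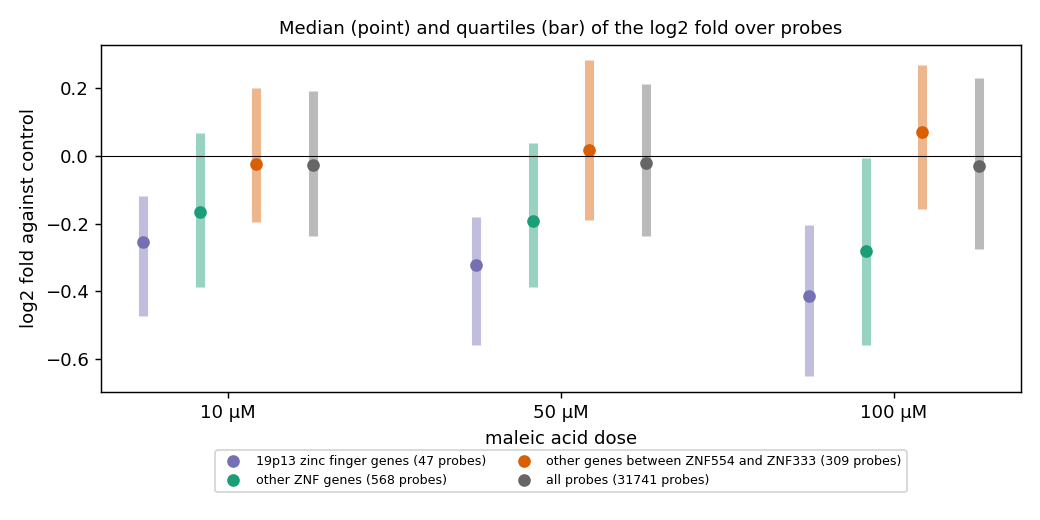
Log2 fold against control (y axis) at 10, 50 and 100 µM (x axis) for the 19p13 zinc finger probes, other ZNF genes, other genes between ZNF554 and ZNF333, and all probes, with points for the median and bars for the quartiles over probes. The member median was -0.26 at 10 µM, -0.32 at 50 µM and -0.41 at 100 µM, below the other sets at each dose.

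Brightness was set beside these counts, since array noise differs with it. With all probes split by mean intensity into 5 equal classes, 2 of 9 members in the dimmest class were lower at 100 µM, against 4.6% of all probes there. In class 2 it was 7 of 9 (15.6% of all probes), in class 3 it was 7 of 11 (18.5%), in class 4 it was 4 of 17 (9.26%), and in the brightest it was 0 of 1 (4.13%).

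At the lower doses fewer members passed the test after quantile normalization, an order that depended on the scaling. Under median scaling 18 were lower at 100 µM, 17 at 50 µM and 5 at 10 µM, where 15.1%, 12.6% and 7.84% of all probes were. Without scaling it was 29, 0 and 28, where 35.8%, 0.0315% and 36.1% of all probes were lower. In the quantile-normalized values at 50 µM 5 of 47 were lower and 0 higher, where 1.17% of all probes were lower and 1.13% higher, and the median log2 fold was -0.32. At 10 µM 2 were lower and 0 higher, where 1.57% and 1.72% of all probes were, and the median was -0.26. The 5 at 50 µM were ZNF121, ZNF136, ZNF440, ZNF441 and ZNF44, and the 2 at 10 µM were ZNF121 and ZNF440. Calls at both doses were lost when a control array was left out, and the share of all probes called lower fell as well. Without 1 array the member median ran from -0.36 to -0.30 at 50 µM and from -0.32 to -0.19 at 10 µM. These doses share their control arrays with the 100 µM comparison. Between the treated doses no member passed the limma test. At 50 µM against 10 µM 0.00945% of all probes were called in either direction, at 100 µM against 50 µM 0.312%, and at 100 µM against 10 µM 0.0819%. At an unadjusted limma p under 0.05, 4 members were lower and 1 higher at 50 µM against 10 µM, where 1438 and 1424 of all 31741 probes were. At 100 µM against 50 µM it was 7 and 3 members (3416 and 3029 of all probes). At 100 µM against 10 µM it was 12 and 1 (4085 and 4100 of all probes). The mean fell at every step of dose in 13 members (9.27% of all probes) and rose at every step in 1 (9.00%). Without scaling 0 members fell at every step, and the share of all probes was not counted there. The median of all probes was then itself -0.30 at 10 µM, 0.14 at 50 µM and -0.34 at 100 µM.

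ZNF121, a C2H2 protein reported to bind MYC, had the lowest fold of the members. Its log2 intensity in control cells was 8.27 and 8.16, with 7.53 and 7.61 at 10 µM, 7.20 and 7.15 at 50 µM, and 6.61 and 6.76 at 100 µM. After quantile normalization no array of 1 dose overlapped with those of another, and each dose lay below the one before. In the deposited intensities the arrays at 10 µM (191 and 154) and at 50 µM (183 and 179) overlapped. The log2 fold at 100 µM was -1.53 ± 0.10 (SE, 2 arrays a dose), or 34.6% of control (limma adjusted p = 0.00092). ZNF136, a KRAB protein, had 8.19 and 8.30 in control, 7.31 and 7.60 at 10 µM, 7.27 and 7.42 at 50 µM, and 6.80 and 7.15 at 100 µM. Its log2 fold was -1.27 ± 0.16, or 41.4% of control (limma adjusted p = 0.0063). The control arrays were above all others, and the arrays at 10 and 50 µM overlapped.

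ZNF791 was lower on both of its probes. The first had a log2 intensity of 8.26 and 7.92 in control, 7.46 and 7.54 at 10 µM, 7.50 and 7.49 at 50 µM, and 6.87 and 7.06 at 100 µM, a log2 fold of -1.12 ± 0.14 (limma adjusted p = 0.0060). The second gave -0.71 ± 0.13 (limma adjusted p = 0.016). On each probe both 100 µM arrays were below both control arrays. ZNF490, which shares the promoter stretch shown above, gave log2 folds of -0.24 ± 0.13 and -0.29 ± 0.13 on its 2 probes, neither past the test.

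ZNF426, a KRAB protein, was close to control at the lower doses. It had 8.45 and 8.67 in control, 8.44 and 8.55 at 10 µM, 8.37 and 8.22 at 50 µM, and 7.71 and 7.42 at 100 µM. The 2 arrays at 100 µM were below all others, with a log2 fold of -1.0 ± 0.14, or 50.0% of control (limma adjusted p = 0.0083). ZNF558, a KRAB repressor known in human neural progenitors for silencing the mitophagy gene SPATA18, had both probes lower, with log2 folds of -0.81 ± 0.19 and -0.72 ± 0.18 (limma adjusted p = 0.030 and 0.037). The probes differed at the lower doses. The first had 10.12 and 10.42 in control, 10.38 and 10.38 at 10 µM, 10.31 and 10.23 at 50 µM, and 9.72 and 9.19 at 100 µM. The second had 8.97 and 8.76 in control, 8.29 and 8.29 at 10 µM, 7.98 and 8.48 at 50 µM, and 8.23 and 8.06 at 100 µM. Thus the first overlapped control until 100 µM, and the second was below control at each dose without passing the test at 10 or 50 µM. With the replicate block the second was not called at 100 µM (limma adjusted p = 0.061). In most fits without 1 array neither probe kept its call. Over the other settings and these fits the log2 fold ran from -1.32 to -0.55 on the first and from -1.0 to -0.61 on the second.

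ZNF440 and ZNF441, whose promoter boxes are shown above, passed the test below the highest dose. ZNF440 had 6.82 and 6.79 in control, 5.92 and 5.79 at 10 µM, 6.21 and 6.05 at 50 µM, and 6.04 and 6.0 at 100 µM. After quantile normalization all 6 treated arrays were below control, and the log2 fold was -0.95 at 10 µM (limma adjusted p = 0.010), -0.67 at 50 µM (limma adjusted p = 0.039) and -0.79 ± 0.10 at 100 µM (limma adjusted p = 0.0070). At 100 µM it was -0.29 under median scaling and -0.61 without scaling, neither called (limma adjusted p = 0.38 and 0.20), and in the deposited intensities 1 array at 50 µM (104) was above both control arrays (92 and 96). ZNF441 had 7.99 and 7.91 in control, 7.60 and 7.53 at 10 µM, 7.24 and 7.18 at 50 µM, and 7.41 and 7.51 at 100 µM. Its lowest arrays were those at 50 µM, with a log2 fold of -0.74 there (limma adjusted p = 0.027) and -0.49 ± 0.10 at 100 µM (limma adjusted p = 0.019). The latter was -0.26 under median scaling and -0.58 without scaling, neither called (limma adjusted p = 0.17 and 0.073). ZNF44, a KRAB protein also known as KOX7, had 9.85 and 9.71 in control, 9.40 and 9.41 at 10 µM, 9.19 and 9.23 at 50 µM, and 9.59 and 9.50 at 100 µM. It was lower at 50 µM, with a log2 fold of -0.57 (limma adjusted p = 0.044), and its value of -0.24 ± 0.10 at 100 µM did not pass.

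**Figure D3:**
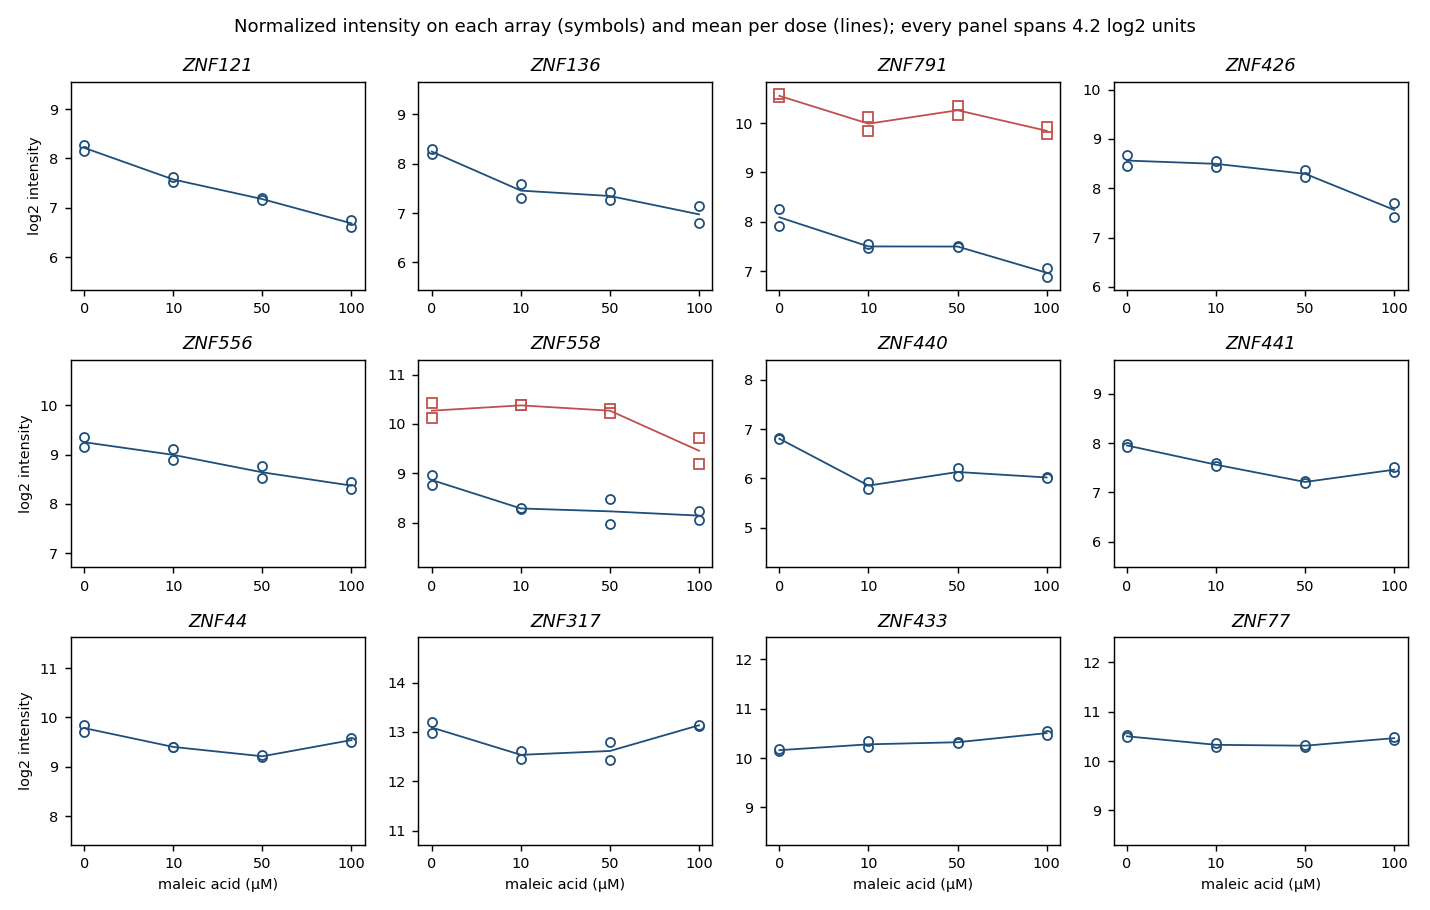
Normalized log2 intensity (y axis) on each array (symbols) and mean per dose (lines) against the dose of maleic acid in µM (x axis, doses evenly spaced) for 12 members, with squares for the other probe of a gene. ZNF121 fell from 8.27 and 8.16 to 6.61 and 6.76, while ZNF317 and ZNF44 were lowest at the middle doses.

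In 19p13.3, 5 of the 7 probes of 5 genes were lower at 100 µM, where 10.4% of all probes were. The median log2 fold was -0.57. ZNF556 had 9.15 and 9.35 in control, 8.88 and 9.10 at 10 µM, 8.76 and 8.52 at 50 µM, and 8.45 and 8.29 at 100 µM, a log2 fold of -0.88 ± 0.14 (limma adjusted p = 0.012). Every treated array lay below both control arrays, and the 100 µM arrays lay below all others. ZNF554 was lower on both probes, at -0.69 ± 0.17 and -0.68 ± 0.17. After quantile normalization the second was under the background level on both 100 µM arrays, which put its difference at 1.35-fold or more in those values. Its deposited intensities overlapped, with 47 and 54 in control and 23 and 58 at 100 µM. The filter on dim probes left it out. Under median scaling neither probe was called, with log2 folds of -0.45 and -0.15 (limma adjusted p = 0.11 and 0.78), the second being smaller than that bound. ZNF57 gave -0.44 ± 0.12, with no call under median scaling (-0.35, limma adjusted p = 0.073) or the replicate block (limma adjusted p = 0.072). ZNF77, with the 6 boxes printed above and the brightest control probe of its group, had 10.53 and 10.48 in control, 10.29 and 10.37 at 10 µM, 10.29 and 10.33 at 50 µM, and 10.43 and 10.50 at 100 µM. Its 100 µM arrays overlapped control, with a log2 fold of -0.04 ± 0.09 that did not pass the test.

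In the stretch from ZNF558 to ZNF846, 6 of 13 probes were lower (10.4% of all probes), with a median log2 fold of -0.42. Beside the genes above, ZNF561 gave -0.67 ± 0.11 and ZNF846 -0.42 ± 0.11. ZNF846 was called in 3 of the 7 other settings and in 0 of the 8 fits without 1 array, and was -0.15 under median scaling (limma adjusted p = 0.43). ZNF561, which has the same motif pair as ZNF121, had 9.05 and 8.87 in control and 8.22 and 8.36 at 100 µM. ZNF562, the third gene with that pair, gave -0.45 ± 0.15 on 1 probe and 0.03 ± 0.19 on the other, and neither passed. ZNF317, whose control probe was the brightest of this group, had 13.19 and 12.99 in control, 12.62 and 12.46 at 10 µM, 12.44 and 12.79 at 50 µM, and 13.13 and 13.14 at 100 µM. Its arrays at 10 and 50 µM lay below the control arrays and those at 100 µM did not, and no dose passed the test (log2 fold -0.55, -0.48 and 0.05). ZNF559 and ZNF266 gave -0.05 ± 0.10 and 0.05 ± 0.15 at 100 µM, and ZNF560 and ZNF699 -0.37 ± 0.16 and -0.38 ± 0.21, and none of these passed.

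In the stretch from ZNF653 to ZNF791, 8 of 23 probes were lower and 1 was higher, where 10.4% and 8.94% of all probes were. The median log2 fold was -0.33. The lower ones not yet named were ZNF564 at -0.63 ± 0.14, ZNF823 at -0.54 ± 0.11 and 1 probe of ZNF709 at -0.49 ± 0.10. ZNF433 was the 1 member called higher, at 0.35 ± 0.10 (limma adjusted p = 0.049), with no call without any 1 array and a log2 fold of -0.19 on the deposited values without scaling. It had 10.14 and 10.18 in control, 10.22 and 10.34 at 10 µM, 10.33 and 10.31 at 50 µM, and 10.55 and 10.46 at 100 µM. After quantile normalization every treated array of ZNF433 was above both control arrays. The deposited intensities were 1401 and 1406 in control, 1052 and 1025 at 10 µM, 1391 and 1489 at 50 µM, and 1201 and 1263 at 100 µM. At 100 µM it was not called under median scaling (0.13, limma adjusted p = 0.42) or with the replicate block (limma adjusted p = 0.086). ZNF627, the brightest control probe of this group, had 11.56 and 11.44 in control, 11.40 and 11.38 at 10 µM, 11.44 and 11.40 at 50 µM, and 11.31 and 11.48 at 100 µM, with no call and overlapping arrays at 100 µM. ZNF653 gave 0.02 ± 0.11. ZNF69, ZNF700, ZNF491, ZNF878, ZNF625 and 1 probe of ZNF442 gave log2 folds between -0.43 and -0.20 without passing the test. ZNF563 and the other probe of ZNF442 were not above background on either 100 µM array, nor on 1 control array, and neither was called. ZNF69 overlaps ZNF700, and ZNF563 overlaps ZNF442, in the annotation.

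Outside these clusters, 1 of 4 probes was lower (10.4% of all probes). It belonged to ZNF414, whose probes differed. On the probe that was lower, the arrays gave 10.55 and 10.84 in control, 10.85 and 10.88 at 10 µM, 10.85 and 10.71 at 50 µM, and 10.18 and 10.01 at 100 µM, a log2 fold of -0.60 ± 0.13. The other probe of ZNF414 had 10.97 and 10.91 in control and 10.86 and 10.90 at 100 µM, a log2 fold of -0.06 ± 0.09 that did not pass. ZNF333 gave -0.47 ± 0.17 and ZNF557 0.27 ± 0.25, without a call.

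Probes of 1 gene also disagreed in ZNF555, a protein known to bind beta-satellite repeats in muscle cells. Here 1 probe had 7.86 and 7.88 in control, 7.44 and 7.33 at 10 µM, 7.64 and 7.45 at 50 µM, and 7.10 and 7.50 at 100 µM, a log2 fold of -0.57 ± 0.15 (limma adjusted p = 0.044), with no call under median scaling (-0.33), without scaling or with the replicate block. The other had 9.74 and 9.97 in control, 9.83 and 10.18 at 10 µM, 10.03 and 10.03 at 50 µM, and 10.05 and 9.84 at 100 µM, a log2 fold of 0.09 ± 0.15 without a call. The probes of ZNF709 went the same way, at -0.49 ± 0.10 and -0.37 ± 0.15, and the first alone passed the test.

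**Figure D4:**
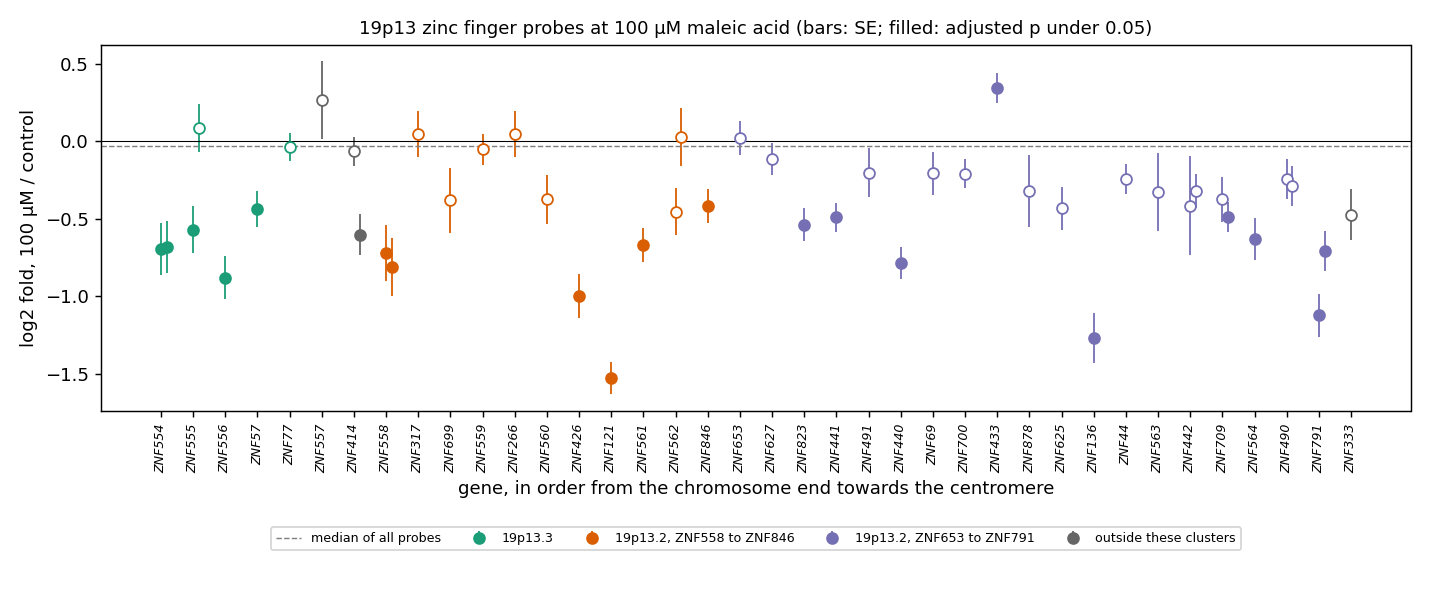
Log2 fold at 100 µM against control (y axis, points with SE bars) for each of the 47 probes, with genes in order along 19p13 (x axis), filled where the adjusted p was under 0.05. Most points lie below the dashed median of all probes (-0.03), ZNF121 is lowest at -1.53, and ZNF433 is the 1 filled point above it (-0.19 in place of 0.35 without scaling).

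Grouped by the box in the promoters, the folds overlapped. The 20 probes of genes with 1 CCAATCA had 6 lower and 1 higher and a median log2 fold of -0.32. The 7 probes of genes with 2 or more copies had 5 lower and a median of -0.57, and the 19 probes of genes without it had 9 lower and a median of -0.45. Of all probes 10.4% were lower and 8.94% higher. The genes with 2 or more copies were ZNF555, ZNF556, ZNF57 and ZNF77 of 19p13.3, with ZNF136 and ZNF564. Copy number was thus not separate from position. The range was -1.53 to 0.27 without the box, -1.12 to 0.35 with 1, and -1.27 to 0.09 with 2 or more.

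The partners of the KRAB domain showed a smaller median. Of 31 probes of 20 genes for co-repressor and heterochromatin proteins, 6 were lower (19.4%, against 10.4% of all probes) and 0 higher, with a median log2 fold of -0.13, against -0.03 over all probes. TRIM28, the scaffold that KRAB domains recruit, gave 0.03 ± 0.11, and SETDB1, the methyltransferase it brings in, gave -0.14 ± 0.11 and 0.31 ± 0.13 on 2 probes, none past the test. The 6 lower probes belonged to 5 genes. SUV39H2, a histone methyltransferase of heterochromatin, had 7.83 and 8.02 in control and 6.63 and 6.88 at 100 µM, a log2 fold of -1.17 ± 0.12 (limma adjusted p = 0.0039). MPHOSPH8, a subunit of the HUSH silencing complex, gave -0.59 ± 0.11 and -0.51 ± 0.13 on its 2 probes. EHMT1, CBX1 and HDAC2 each had 1 lower probe, at -0.43 ± 0.11, -0.79 ± 0.21 and -0.46 ± 0.11. Their other probes were not called, and they gave 0.42 ± 0.20 and -0.17 ± 0.13 in EHMT1, -0.17 ± 0.19 in CBX1 and -0.35 ± 0.15 in HDAC2.

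The array and cell identity checks were as follows. The 2 arrays of a dose correlated at 0.992 to 0.994 over the members, and 0 members were over 2-fold apart between them. The median deposited intensity over all probes was 336 to 524 across the arrays. None of 12 probes of 10 reference genes was called by limma at 100 µM (0 at an unadjusted p under 0.05). All 6 noradrenergic marker genes were above background on every array, with a summed level of 270218 to 290323 in control and 263205 to 264110 at 100 µM. All 7 mesenchymal and Schwann-lineage genes were above background too, with sums of 41308 to 42544 and 42500 to 47483. Of 5 blood cell markers 2 were above background on every array, with CD3E and PTPRC below it on all 8, and their sum was 1332 to 1391 in control and 1837 to 2177 at 100 µM. The 4 epithelial markers summed to 693 to 724 and 551 to 669. Of these marker probes GATA3 (1 of its 2 probes, -0.47) and KRT8 (-0.56) were lower at 100 µM, and CD14 (0.63), HBA1 (0.57), 1 probe of FOSL2 (0.49) and 1 probe of PRRX1, under background on 7 of the 8 arrays, were higher. The sums weigh bright probes most. The part of these markers in the member values was not tested, and in a bulk sample fewer cells of a type and less RNA per cell cannot be told apart.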

How the data were processed

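Human Whole Genome OneArray v6 arrays (1 dye, Cy5) were hybridized with RNA of SH-SY5Y cells, with 1 RNA sample for each of the 4 doses and 2 technical arrays for each RNA (8 arrays). The deposited values are linear intensity per probe, background-subtracted by the authors, read with GenePix 4.1 and processed in Rosetta Resolver with low-flag spots removed. The methods name a median scaling, but array medians differed, so scale was set anew. Each of 31741 probes was used, with 24658 named by 1 symbol, 1002 by several and 6081 unnamed here.

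Intensities under 1 were set to 1, taken as log2 and quantile normalized. A limma fit (version 3.58.1, R 4.3.3) gave each dose 1 mean over its 2 arrays, with Benjamini-Hochberg adjustment over all probes and a threshold of 0.05. The fit was tested on simulated arrays, where large changes were mostly called and changes of 2-fold or less often were not when few probes changed, so a member without a call is not shown to be unchanged. With 2 arrays a dose, the number of arrays limits the precision. A probe under an intensity of 50 on both arrays of a dose was taken as not above background.

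The members and the lists were chosen with earlier results of these data known. Genes with values on every array were the 8 lowest and up to 4 highest probes called at 100 µM, ZNF121 and ZNF426, genes whose probes disagreed and the brightest control probe of each group. ZNF441, ZNF44, ZNF561 and SUV39H2 had array values added after their values were seen. Promoters were read from the RefSeq table (GRCh38.p14, 250 bases before to 50 bases from the start) with pandas. No build was named for the array annotation, so the table served for order and sequence only. Other settings tried were a replicate block, each array left out, means per gene, a dose trend over 4 averaged samples, an offset of 50, a floor of 32, leaving out dim probes, and unscaled, median-scaled or cyclic loess values.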

Additional observations from a re-analysis of the deposited data

How the results depend on the processing

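Of the 21 called member probes, 20 kept their sign in the 7 other settings and the 8 fits without 1 array, 12 were called in all those settings with no array left out, and 4 were called in all of both kinds. ZNF433 turned to -0.19 without scaling. The call counts below are member probes beyond array noise, and the cause of each move was not tested.

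Without any scaling, the median of all probes itself moved to -0.34 at 100 µM, -0.30 at 10 µM and 0.14 at 50 µM. The member medians were -0.65, -0.63 and -0.16, and the members lay -0.31, -0.34 and -0.30 from the median of all probes. Lower by limma were then 29 at 100 µM, 28 at 10 µM and 0 at 50 µM, where 35.8%, 36.1% and 0.0315% of all probes were. Higher at 100 µM were 0 (5.2% of all probes). Of the members 12 were over 2-fold lower and 0 fell at every step, and the share of all probes was not counted for either. Median scaling gave medians of -0.33 at 100 µM and -0.24 at 50 µM. It gave 18 lower and 0 higher at 100 µM, where 15.1% and 16.1% of all probes were. At 50 µM 17 were lower and 1 higher (12.6% and 16.1% of all probes), and at 10 µM 5 and 1 (7.84% and 10.4%). Lower at 50 and 10 µM were 10 and 6 with dim probes left out (4.79% and 3.46% of all probes kept). It was 11 and 6 with a floor of 32 (4.17% and 3.19% of all probes), and 10 and 7 with an offset of 50 (4.96% and 3.88%). The offset gave medians of -0.28 at 100 µM and -0.26 at 50 µM. Means per gene gave 4 lower of 38 genes at 10 µM (2.11% of all genes).

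The labels named no pairing of the replicate numbers, and the main fit used none. The deviations of same-numbered arrays from their own dose mean correlated between doses at -0.0796 to 0.11. These values do not show how the arrays were run. With the replicate block, 15 were lower and 0 higher at 100 µM, where 7.51% and 7.28% of all probes were. Lower were 1 at 50 µM (0.0473% of all probes) and 2 at 10 µM (0.293%). A dose trend over the 4 averaged samples gave 0 falling by limma (12 at an unadjusted p under 0.05, and 7.82% of all probes), with a lowest adjusted p of 0.197 over the members and over all probes alike, so that 0 of all 31741 probes passed this fit.

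With 1 array left out, the lone array of that dose is assumed to vary like the others. At every dose a smaller share of all probes was then called lower than in the full fit. Lower counts were 6 to 16 at 100 µM, 0 to 4 at 50 µM and 0 to 2 at 10 µM, and 0 were higher at 100 µM. Medians at 100 µM ran from -0.51 to -0.33. Over 2-fold lower were 3 to 5, and the share of all probes was not counted in these fits.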
